A study of Ovis aries with 12 samples.

Results

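Oxidative phosphorylation is carried out by 5 protein complexes in the inner mitochondrial membrane, and the transcripts of their nuclear-encoded subunits were measured here in sheep corpora lutea. The members were all probe sets whose single gene symbol names a subunit family of complexes I to V (NDUFA, NDUFB, NDUFC, NDUFS, NDUFV, UQCR, COX4I, COX5, COX6, COX7, COX8 or ATP5), SDHA to SDHD, or CYC1. The rule used names only and no measured value. It found 110 probe sets for 85 genes, of 24016 probe sets tested, of which 13292 had a single symbol and covered 9155 genes. Of the 110, 101 probe sets for 79 genes are subunits. They comprise 46 probe sets (36 genes) of complex I, 4 (4 genes) of complex II, 12 (9 genes) of complex III, 19 (14 genes) of complex IV and 20 (16 genes) of complex V. The prefixes also took in 9 probe sets of 6 genes that are not subunits: the complex I assembly factors NDUFAF3, NDUFAF5, NDUFAF6 and NDUFAF8, the supercomplex factor COX7A2L and the ATP synthase inhibitor ATP5IF1. NDUFA4 and its paralogue NDUFA4L2 were counted with complex IV, where the NDUFA4 protein is now placed.

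The corpus luteum is the gland that forms from the ovulated follicle and makes progesterone. Its steroidogenic cells are rich in mitochondria, because the first step of steroid synthesis, the cleavage of the cholesterol side chain by CYP11A1, takes place on the inner mitochondrial membrane. Complex I (NADH dehydrogenase) and complex II (succinate dehydrogenase, also an enzyme of the tricarboxylic acid cycle) pass electrons to ubiquinone, complex III (cytochrome bc1) passes them to cytochrome c, and complex IV (cytochrome c oxidase) passes them to oxygen. Complexes I, III and IV pump protons, and complex V (ATP synthase) uses the proton gradient to make ATP. All members are encoded in the nucleus. In sheep the embryo signals its presence during the second week after mating, and without that signal the gland regresses.

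The 12 arrays came from 12 ewes, 3 in each of 4 groups: day 12 non-pregnant, day 12 pregnant, day 14 non-pregnant and day 14 pregnant. Ewes of the pregnant groups were bred to an intact ram, those of the non-pregnant groups stayed unbred and had their cycle followed with a vasectomized ram, and each gland was snap frozen whole, so its RNA mixes steroidogenic, vascular, stromal and immune cells. The sources used here give neither the breed and age of the ewes nor a check for an embryo. The groups rest on the source label of each sample, since the titles call every array day 12 pregnant, against the source label of 9 arrays.

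Values are log2 RMA levels, a scale on which 1 unit is a 2-fold difference. The array's probes were designed on cattle sequence and met sheep RNA, so levels of different probe sets were not compared with each other. A probe set was called dim when its mean lay in the lowest 25% of all probe sets, under 3.59, and 11 members, 10 of them subunits, were dim. Differences are given ± SE from a linear model over all 12 arrays (limma) with a term for array batch. Per the description labels, 4 samples (batch A) were run on a gene array and 8 (batch B) on a genome array. The sources did not settle if the wording marks separate runs or designs, and "batch" stands for either. Batch A held replicate 3 of both pregnant groups and replicates 2 and 3 of the day 14 non-pregnant group, and none of the day 12 non-pregnant group. The first principal component of all probe sets held 29.6% of the variance and set the day 14 non-pregnant group, at 18.1 to 40.4, against the other 9 arrays, at -13.0 to -7.0. Luteal identity was clear from STAR, CYP11A1 and the other steroidogenic markers, whose mean level was 9.99 to 10.7 in every array. In whole tissue, fewer cells of a type and less RNA per cell cannot be told apart.

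The day 12 pregnant group had the highest subunit levels. For each array, the 101 subunit probe sets were centred on their own 12-array means and averaged. The 3 day 12 pregnant arrays had averages of 0.10, 0.13 and 0.074, above each of the other 9 arrays. The day 12 non-pregnant arrays were at -0.042, 0.0035 and -0.040, the day 14 non-pregnant arrays at 0.0058, -0.071 and -0.12, and the day 14 pregnant arrays at -0.063, -0.035 and 0.052. The other 3 groups overlapped one another. Within each day 14 group the array that stood highest was of the other batch than the rest, batch A in the pregnant and batch B in the non-pregnant group.

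**Figure D1:**
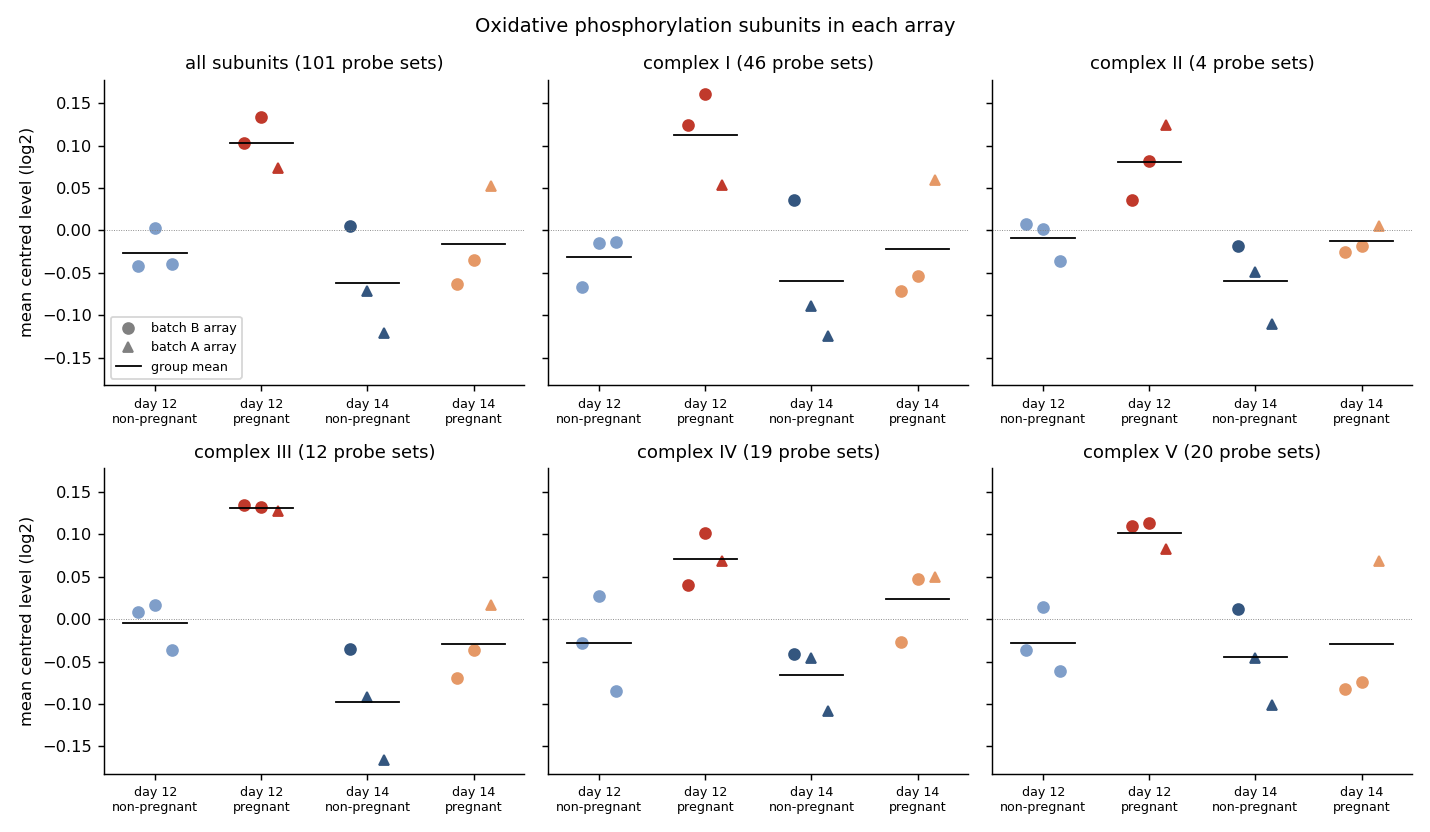
Mean level of the subunit probe sets of all complexes and of each complex in the 12 arrays (log2, each probe set centred on its own 12-array mean); points are arrays, circles batch B, triangles batch A, and lines are group means. For all subunits the day 12 pregnant arrays lay between 0.074 and 0.13, above the highest of the other arrays at 0.052.

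By complex, the 3 day 12 pregnant arrays lay above all other 9 arrays in complex II (0.036 to 0.12, against at most 0.0071), in complex III (0.128 to 0.135, against at most 0.017) and in complex V (0.083 to 0.11, against at most 0.068). In complex I they spanned 0.053 to 0.16 and in complex IV 0.041 to 0.10. There they overlapped the highest of the other arrays, at 0.059 and 0.050, which were day 14 pregnant arrays. The day 12 pregnant group had the highest of the 4 group means for 77 of the 101 subunit probe sets (76.2%), while it had the highest mean for 28.7% of all probe sets tested. The counts were 37 of 46 in complex I, 3 of 4 in complex II, 11 of 12 in complex III, 11 of 19 in complex IV and 15 of 20 in complex V. The day 14 non-pregnant group had the lowest mean for 56 of 101 (55.4%), against 39.8% of all probe sets. The group means counted here are raw, without a batch term. In the day 14 non-pregnant group the subunit average was -0.071 and -0.12 in the batch A arrays. It was 0.0058 in the batch B array, above all day 12 non-pregnant arrays. For 16 of the 101 all 3 day 12 pregnant arrays lay above the other 9, as for 0.987% of all probe sets. These were NDUFA1, NDUFA7, NDUFA10 and NDUFS7 of complex I, SDHB of complex II, CYC1, UQCR10, UQCRC1, UQCRFS1, UQCRH and UQCRQ of complex III, COX4I1 and COX5B of complex IV, and ATP5F1B, ATP5MC2 and ATP5PO of complex V.

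**Figure D2:**
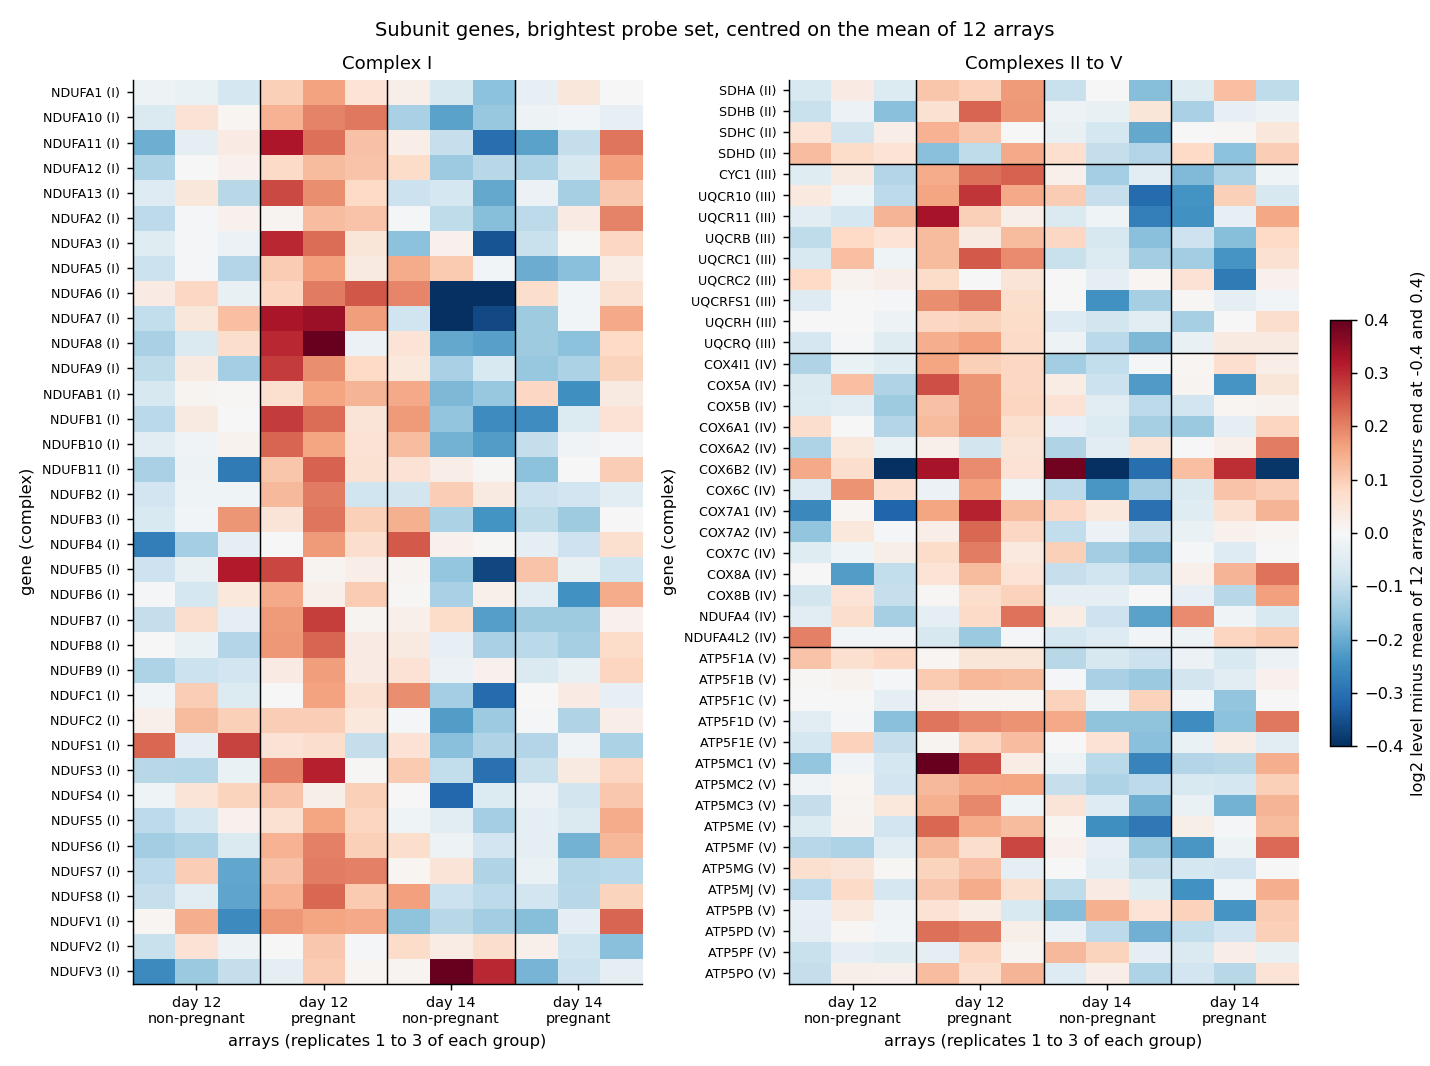
Level of each subunit gene (rows, brightest probe set of a gene, grouped by complex) in each of the 12 arrays (columns, by group), as the log2 difference from the gene's 12-array mean, red above and blue below, with colours ending at -0.4 and 0.4. Over all 101 subunit probe sets the day 12 pregnant group had the highest mean for 77. NDUFA4L2 and NDUFV3 were farthest from the subunit mean (r = -0.39 and -0.18). Several others, ATP5PB and SDHD among them, followed it little (r = 0.0027 and 0.014).

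On day 12, most subunit transcripts were slightly higher in pregnant than in non-pregnant ewes, and no single member passed the test. Of the 110 members, 92 had a higher fitted level in pregnancy, with a median difference of 0.14 (quartiles 0.066 and 0.22) against 0.011 over all probe sets, of which 53.1% lay above 0. The median SE of a member was 0.11, so a typical member's difference was only slightly larger than its error. At an adjusted p under 0.05 by limma with Benjamini-Hochberg adjustment, 0 members were called, and 0% of all probe sets were. The smallest adjusted p of a member was 0.533. At an unadjusted p under 0.05, 25 members were higher and 0 lower, where 3.46% of all probe sets were higher and 4.23% lower. For 53 members all pregnant arrays lay above all non-pregnant ones (48.2%; 8.56% of all probe sets), and for 2 the reverse held (1.82%; 7.87%). The median was 0.12 to 0.17 with any single array left out and 0.17 within batch B (3 non-pregnant and 2 pregnant arrays). The count of 25 was 5 without day 12 pregnant replicate 2, 15 without its replicate 1, and 10 and 8 without day 12 non-pregnant replicates 1 and 3. Leaving out day 14 pregnant replicate 3 gave 36.

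A measure of RNA quality and a marker list also separated these groups. The difference between the 3′ and 5′ control probe sets of actin and GAPDH was 1.57 to 1.60 in day 12 pregnant and 1.42 to 1.47 in day 12 non-pregnant arrays. It overlapped for actin alone, and for GAPDH alone it was 0.19 to 0.27 against -0.051 to 0.14. The mean of 5 red blood cell markers (3 of 5 higher, 2 dim) was 4.003 to 4.14 against 3.84 to 4.0. The steroidogenic markers overlapped, with a mean of 10.6 in every array of both groups. The part of RNA quality and of blood in the subunit differences was not tested.

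**Figure D3:**
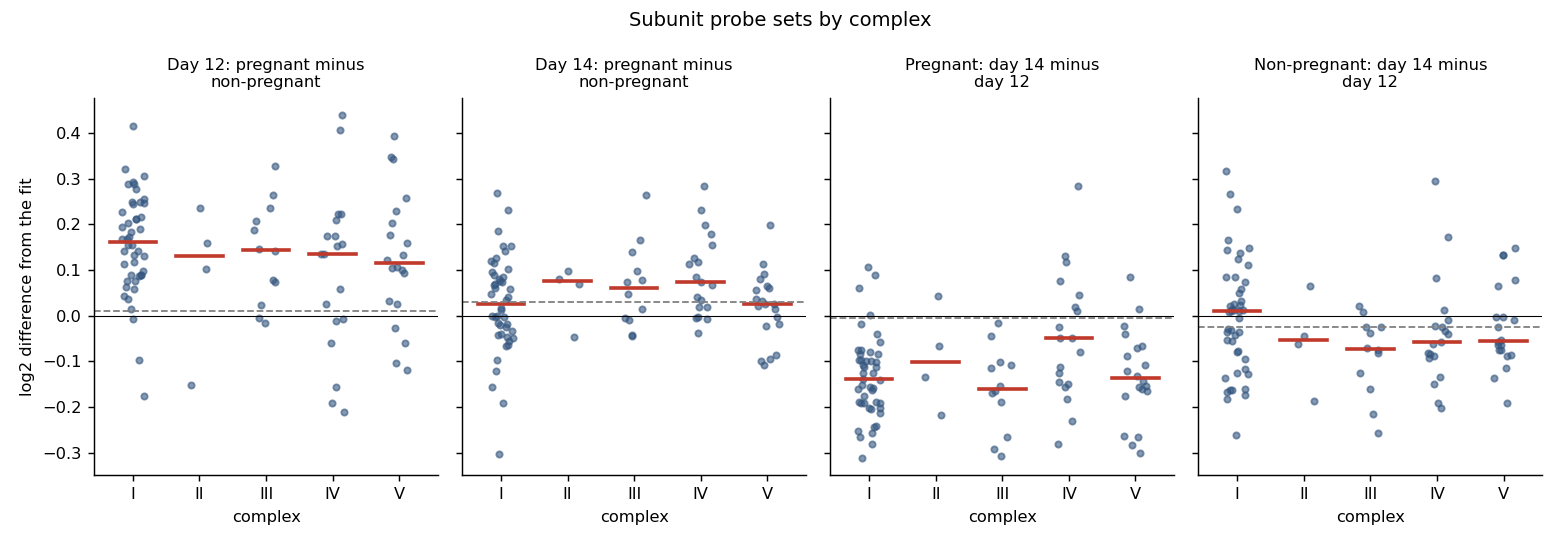
Fitted log2 difference of each subunit probe set (points) by complex in the 4 comparisons between groups; red lines are medians of a complex, and the dashed line is the median of all probe sets. On day 12 the medians of complexes I to V lay between 0.11 and 0.16, and between day 12 and day 14 of pregnancy they lay between -0.16 and -0.049.

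Complex I showed this in its core and its accessory subunits. On day 12, 43 of its 46 probe sets were higher in pregnant ewes (median 0.16). Of them, 11 were at an unadjusted p under 0.05 (3.46% of all probe sets) and 26 without overlap between the groups (8.56%). The core subunits measured include those that carry the flavin and the iron-sulphur clusters. Of the 9 core probe sets, 8 were higher (median 0.090), and of the accessory subunits 33 of 35 (median 0.17). Both probe sets of the acyl carrier subunit NDUFAB1, counted apart from these, were also higher, at 0.16 and 0.19. NDUFS8, a core subunit that holds iron-sulphur clusters, was at 8.85, 8.90 and 8.73 in the day 12 non-pregnant arrays and at 9.09, 9.18 and 9.05 in the day 12 pregnant ones. It was at 9.11, 8.86 and 8.84 in the day 14 non-pregnant and at 8.87, 8.84 and 9.03 in the day 14 pregnant arrays. The day 12 groups did not overlap, and a single day 14 non-pregnant array reached the day 12 pregnant range. Its day 12 difference was 0.29 ± 0.11 (unadjusted p = 0.0182, adjusted p = 0.586, limma).

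The smallest p in complex I was that of a dim probe set of NDUFA5, an accessory subunit of the matrix arm, at 0.42 ± 0.14 (unadjusted p = 0.0120, adjusted p = 0.551, limma). Its levels were 2.72, 2.76 and 2.78 without and 2.99, 3.20 and 3.35 with pregnancy, where signal and background cannot be told apart. The brightest NDUFA5 probe set differed by 0.17 ± 0.098, with levels of 9.12, 9.19 and 9.08 against 9.30, 9.37 and 9.23. NDUFS3, another core subunit, differed by 0.31 ± 0.11 in its brightest probe set and by 0.043 ± 0.12 in a dim one. NDUFS7, which holds the last cluster before ubiquinone, differed by 0.25 ± 0.10. NDUFS7 was at 9.84, 10.05 and 9.74 without and at 10.06, 10.15 and 10.15 with pregnancy on day 12. The accessory subunit NDUFA8 was at 10.02, 10.09 and 10.22 without pregnancy, and with it at 10.45 and 10.58 in the batch B arrays and 10.12 in the batch A array, which lay among the non-pregnant ones. The brightest probe set of the largest core subunit, NDUFS1, differed by -0.096 ± 0.10, with levels of 9.57, 9.30 and 9.61 against 9.40, 9.41 and 9.25, and its other probe sets by 0.090 and 0.086.

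In complex II, 3 of the 4 subunits were higher with pregnancy on day 12 (median 0.13), and SDHD was lower. SDHA holds the flavin, SDHB the iron-sulphur clusters, and SDHC and SDHD anchor the enzyme in the membrane and bind ubiquinone. SDHB was at 9.71, 9.78 and 9.63 in the day 12 non-pregnant and at 9.86, 10.03 and 9.97 in the day 12 pregnant arrays. On day 14 it was at 9.78, 9.77 and 9.85 without and at 9.67, 9.77 and 9.78 with pregnancy, below all day 12 pregnant arrays. Its day 12 difference was 0.24 ± 0.089 (unadjusted p = 0.0225, adjusted p = 0.592, limma). SDHA, at 9.97, 10.06 and 9.97 against 10.14, 10.12 and 10.20, did not overlap either and differed by 0.16 ± 0.095. SDHC differed by 0.10 ± 0.088. SDHD, the other anchor, was at -0.15 ± 0.11 (95% interval -0.40 to 0.096). It was at 10.83, 10.78 and 10.76 without pregnancy, and with it at 10.54 and 10.61 in batch B and 10.86 in batch A, so the groups overlapped through that array.

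In complex III, 10 of 12 probe sets were higher in pregnant ewes on day 12 (median 0.14). Of them, 5 were at an unadjusted p under 0.05 (3.46% of all probe sets) and 7 without overlap (8.56%). The catalytic subunits measured here, CYC1 and UQCRFS1, were among these. CYC1, cytochrome c1, which hands electrons to cytochrome c, was at 10.46, 10.54 and 10.39 in the day 12 non-pregnant and at 10.66, 10.73 and 10.74 in the day 12 pregnant arrays. It was at 10.53, 10.37 and 10.47 in the day 14 non-pregnant and at 10.33, 10.39 and 10.49 in the day 14 pregnant arrays, so the day 12 pregnant group lay above all others, which overlapped. Its day 12 difference was 0.24 ± 0.092 (unadjusted p = 0.0247, adjusted p = 0.592, limma). UQCRFS1, the Rieske iron-sulphur protein, was at 11.22, 11.27 and 11.27 against 11.46, 11.48 and 11.34, a difference of 0.21 ± 0.085. For the core protein UQCRC1, the brightest probe set differed by 0.15 ± 0.099, with levels of 9.87, 10.05 and 9.92 against 10.06, 10.18 and 10.12. A dim UQCRC1 probe set differed by 0.33 ± 0.13 (unadjusted p = 0.0234). The other core protein, UQCRC2, differed by -0.015 and 0.023 in its probe sets.

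Of the 19 probe sets of complex IV, 13 were higher with pregnancy on day 12 (median 0.14). Of them, 3 were at an unadjusted p under 0.05 (3.46% of all probe sets) and 6 without overlap (8.56%). COX7A1, the heart and muscle isoform of subunit 7A, had the smallest day 12 p of all members. It was at 9.44, 9.71 and 9.38 in the day 12 non-pregnant and at 9.86, 10.01 and 9.83 in the day 12 pregnant arrays. On day 14 it was at 9.78, 9.74 and 9.40 without and at 9.65, 9.76 and 9.84 with pregnancy. The day 12 groups did not overlap, whereas the day 14 groups did, and 1 day 14 pregnant array reached into the day 12 pregnant range. Its day 12 difference was 0.41 ± 0.13, a fold of 1.33 (95% interval 0.12 to 0.69 on the log2 scale, unadjusted p = 0.00923, adjusted p = 0.533, limma). COX7A2, the isoform found in most tissues, differed by 0.15 ± 0.094, at 11.18, 11.38 and 11.33 against 11.36, 11.57 and 11.42.

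COX6B2, known as a testis isoform of subunit 6B, had a fitted difference of 0.44 ± 0.17 (unadjusted p = 0.0240, adjusted p = 0.592). Its levels overlapped, at 5.87, 5.79 and 5.28 against 6.05, 5.91 and 5.78. Of the subunits found in most tissues, COX4I1, the regulatory subunit that binds ATP, was at 11.50, 11.59 and 11.57 against 11.78, 11.71 and 11.70, a difference of 0.17 ± 0.084. COX5B was at 11.16, 11.18 and 11.08 against 11.34, 11.40 and 11.31, a difference of 0.22 ± 0.086, and COX5A differed by 0.21 ± 0.12. Neither COX4I1 nor COX5B overlapped between the day 12 groups, whereas COX5A did.

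The brightest COX6A1 probe set differed by 0.14 ± 0.098 and its dim one by -0.21, whereas COX6A2, the muscle isoform, differed by -0.0078. COX8A, of most tissues, differed by 0.18 ± 0.094, and the probe sets of COX8B, the muscle isoform, by 0.06 and -0.06. NDUFA4 differed by 0.14 ± 0.12. The brightest probe set of NDUFA4L2, a paralogue known to be induced by hypoxia, differed by -0.16 ± 0.092. The isoforms COX4I2, COX6B1, COX7B2 and COX8C were not analysed here.

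In complex V, 16 of 20 probe sets were higher with pregnancy on day 12 (median 0.11), 4 at an unadjusted p under 0.05 (3.46% of all probe sets). Groups without overlap were found for 10 probe sets above (8.56% of all probe sets) and 2 below (7.87%). ATP5MC1 is one of the genes that encode the c subunit, of which the rotating ring in the membrane is built. It was at 10.16, 10.30 and 10.25 in the day 12 non-pregnant and at 10.74, 10.58 and 10.35 in the day 12 pregnant arrays. On day 14 it was at 10.30, 10.21 and 10.05 without and at 10.20, 10.21 and 10.46 with pregnancy. The day 12 groups did not overlap, and the batch A array was the lowest pregnant one. Its difference was 0.34 ± 0.12 (unadjusted p = 0.0184, adjusted p = 0.588, limma). The other c subunit genes, ATP5MC2 and ATP5MC3, which encode the same mature protein, differed by 0.16 ± 0.083 and 0.13 ± 0.11. ATP5MC2 was at 11.03, 11.05 and 10.97 against 11.18, 11.20 and 11.20, without overlap.

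In the catalytic head, the brightest probe set of ATP5F1B, the beta subunit, was at 11.70, 11.71 and 11.69 against 11.80, 11.83 and 11.82, a difference of 0.12 ± 0.083. The SD of the replicates (n = 3) was 0.010 and 0.014 there. A dimmer ATP5F1B probe set, at 4.66, 4.39 and 4.29 against 4.61, 5.05 and 4.80, had a fitted difference of 0.39 ± 0.15 (unadjusted p = 0.0208). ATP5F1A, the alpha subunit and partner of ATP5F1B, differed the other way at -0.060 ± 0.078 in its brightest probe set, at 12.51, 12.46 and 12.48 against 12.40, 12.44 and 12.44. Its dim probe set differed by 0.35. ATP5ME, a membrane subunit, differed by 0.23 ± 0.099, at 9.66, 9.73 and 9.64 against 9.94, 9.86 and 9.84.

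**Figure D4:**
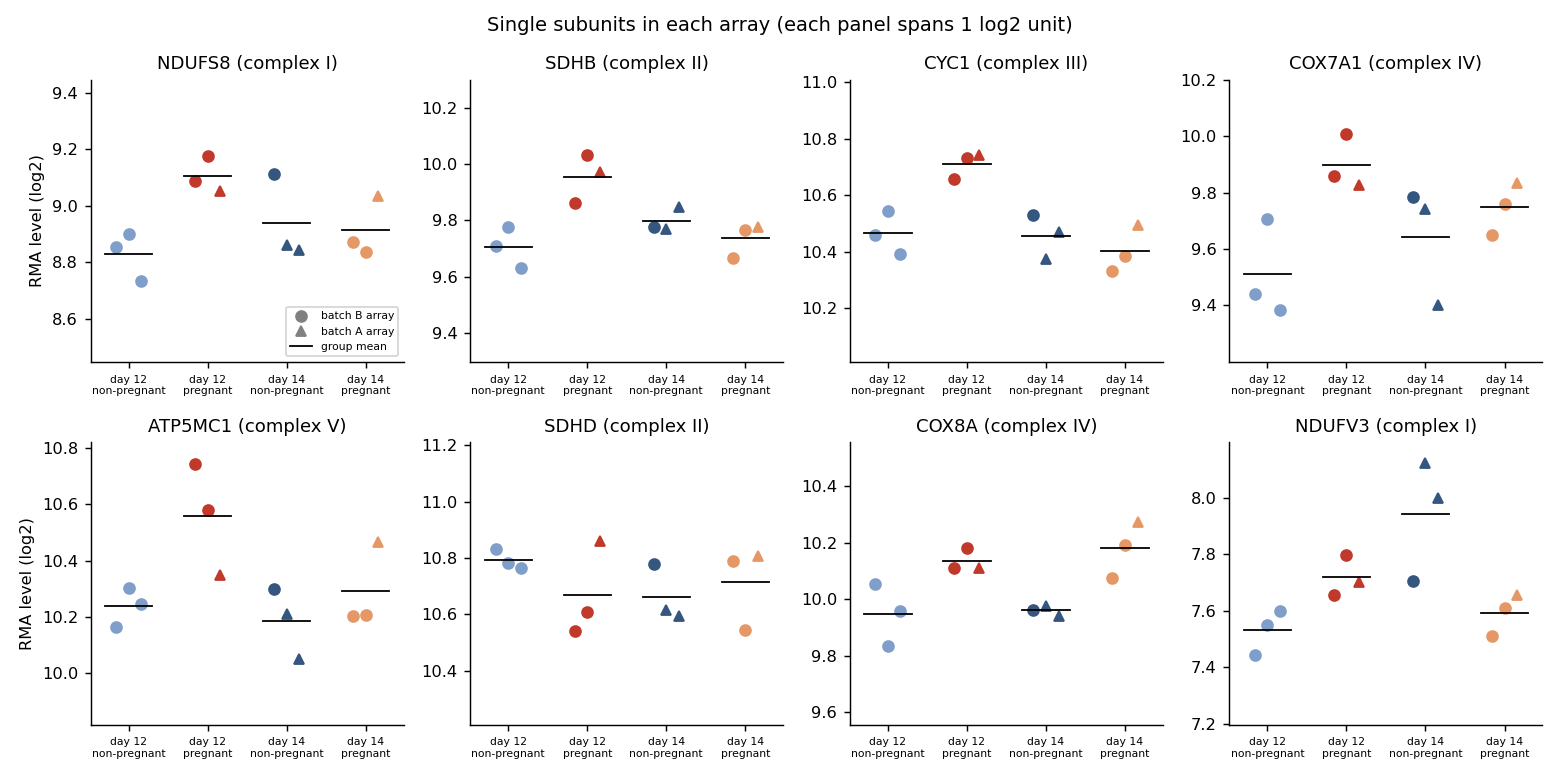
RMA level (log2) of 8 subunits in each array, brightest probe set, each panel spanning 1 log2 unit; circles are batch B, triangles batch A, lines group means. NDUFS8, SDHB, CYC1, COX7A1 and ATP5MC1 had no overlap between the day 12 groups, and SDHD had the opposite direction. Between the day 14 groups, COX8A and NDUFV3 were the only members at an unadjusted p under 0.05 (limma), and neither was called.

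Where a gene had several probe sets, they often disagreed. The fitted day 12 differences had the same sign in all probe sets for 9 of 22 such genes, and for 4 of the 11 that had no dim probe set. The median gap between a gene's probe sets was 0.19, larger than the median difference of the members. With the brightest probe set of each gene, 71 of 79 subunit genes were higher on day 12 (median 0.16). Of the 22 other subunit probe sets, 14 were (median 0.051). Among the non-subunit members, 7 of 9 probe sets were higher (median 0.17), with COX7A2L at 0.22 and ATP5IF1 at 0.13.

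Between day 12 and day 14 of pregnancy the members were lower on day 14, again without a single call. This comparison shares the day 12 pregnant arrays with the one above, so the same 3 arrays enter both. Of 110 members, 94 were lower on day 14, with a median of -0.13 against -0.005 over all probe sets. At an adjusted p under 0.05, 0 members and 0% of all probe sets were called (limma). At an unadjusted p under 0.05, 0 were higher (2.22% of all probe sets) and 14 lower (2.21%). Without overlap between the groups, 1 was higher (4.58%) and 30 lower (5.32%). The count of 14 was 3 without day 12 pregnant replicate 2, 8 without its replicate 1, 4 and 7 without day 14 pregnant replicates 1 and 2, and 9 without either of day 12 non-pregnant replicates 1 and 2. Leaving out day 14 pregnant replicate 3 gave 32, and the 6 arrays of these groups alone gave 5. Within batch B (2 against 2 arrays) 96 of 110 were lower, with a median of -0.18. In the 1 pair of batch A arrays 52 were higher, with a median of -0.0051. The 3′ to 5′ difference of the actin controls was 2.87 to 2.96 on day 12 and 2.70 to 2.84 on day 14 of pregnancy, without overlap. It overlapped for GAPDH, at 0.19 to 0.27 against 0.043 to 0.39, and for the mean of both controls, at 1.57 to 1.60 against 1.44 to 1.60. The mean of the 4 granulosa markers (3 higher on day 14, 1 dim) was 5.41 to 5.53 against 5.56 to 5.68, without overlap. The part of RNA quality and of these markers in the members' values was not tested.

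Complex III was lower in all 12 probe sets (median -0.16), complex I in 42 of 46 (median -0.14) and complex V in 18 of 20 (median -0.14). In complex II it was 3 of 4 (median -0.10) and in complex IV 12 of 19 (median -0.049). CYC1, whose levels are given above, had no overlap and differed by -0.31 ± 0.088 (unadjusted p = 0.00477, adjusted p = 0.992, limma). UQCRC1 was at 9.79, 9.70 and 9.99 on day 14 of pregnancy, below the 10.06 to 10.18 of day 12, and differed by -0.29 ± 0.095 (unadjusted p = 0.0100). NDUFS7, at 9.92, 9.83 and 9.84, differed by -0.26 ± 0.099. NDUFA10, an accessory subunit, was at 7.75, 7.81 and 7.82 on day 12 and at 7.59, 7.60 and 7.58 on day 14, a difference of -0.20 ± 0.079. These groups did not overlap for any of the 4 genes.

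SDHB differed by -0.22 ± 0.086 and SDHA by -0.13. ATP5MC1 differed by -0.27 ± 0.12, but by -0.46 in batch B and 0.11 in batch A, and a dim ATP5F1A probe set by -0.30. In complex IV, COX5A differed by -0.23 ± 0.11, with overlap, and a dimmer probe set of COX6C by 0.28. COX8A did not follow the others, at 10.11, 10.18 and 10.11 on day 12 and 10.08, 10.19 and 10.27 on day 14, a difference of 0.046 ± 0.090.

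On day 14, pregnant and non-pregnant ewes did not differ in any member at the threshold. Of all probe sets, 1.45% were called at an adjusted p under 0.05 on day 14, and 0 of the 110 members (limma). The members' median difference was 0.044 against 0.029 over all probe sets, and 72 of 110 were higher with pregnancy. At an unadjusted p under 0.05, 1 member was higher (8.64% of all probe sets) and 1 lower (6.8%). Without overlap, 9 were higher (11.1%) and 2 lower (7.15%). These shares lay near or below the background and are no result about the members. The medians were 0.025 in complex I, 0.075 in complex II, 0.061 in complex III, 0.074 in complex IV and 0.025 in complex V. The sign of the median over all members depended on the arrays: within batch A (1 pregnant and 2 non-pregnant) 93 of 110 were higher, with a median of 0.18, and within batch B (2 and 1) 34 were, with a median of -0.075. Complex IV had the same sign in both, with a median of 0.16 within batch A, 0.096 within batch B and 0.062 to 0.12 with single arrays left out. Its array means were -0.027 to 0.050 with and -0.11 to -0.041 without pregnancy on day 14, without overlap.

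The single lower member was NDUFV3, an accessory subunit of the flavin-binding module of complex I. It was at 7.44, 7.55 and 7.60 in the day 12 non-pregnant arrays, at 7.66, 7.80 and 7.70 in the day 12 pregnant ones, at 7.71, 8.13 and 8.0 in the day 14 non-pregnant and at 7.51, 7.61 and 7.66 in the day 14 pregnant ones. Its highest values of all were those of replicates 2 and 3 of the day 14 non-pregnant group, both batch A. The difference was -0.30 ± 0.11 (unadjusted p = 0.0154, adjusted p = 0.197, limma), or -0.40 within batch A and -0.15 within batch B. The single higher member was COX8A, at 9.96, 9.97 and 9.94 without and 10.08, 10.19 and 10.27 with pregnancy, a difference of 0.23 ± 0.094 (unadjusted p = 0.0308, adjusted p = 0.264, limma). It had the same sign within batch A (0.31) and batch B (0.17).

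NDUFA7, at 7.88, 7.50 and 7.60 against 7.82, 7.95 and 8.11, differed by 0.27 ± 0.12 with overlap. The remaining smallest p-values by complex belonged to SDHC (0.097), SDHA (0.070), a dimmer UQCRC2 probe set (0.26), UQCRQ (0.097), COX6C (0.20), ATP5ME (0.20) and ATP5MC2 (0.11). NDUFA6, an accessory subunit singled out here after its values were seen, was at 9.04, 8.29 and 8.44 in the day 14 non-pregnant arrays and at 8.91, 8.83 and 8.90 in the day 14 pregnant ones. The 2 low values were the batch A arrays. Its difference was 0.23 ± 0.15 (adjusted p = 0.506), and 0.56 (adjusted p = 0.0415, limma) without day 14 non-pregnant replicate 1, which was its only call in any setting tried. On day 14 the steroidogenic markers also differed: 8 of 9 were higher with pregnancy, and their mean was 9.99 to 10.4 without and 10.5 to 10.7 with pregnancy. The 7 endothelial markers (4 higher) and the 4 granulosa markers (4 higher, 1 dim) were also without overlap, at 6.70 to 7.07 against 7.08 to 7.19 and at 5.38 to 5.52 against 5.56 to 5.68. The mean 3′ to 5′ difference of the controls was 1.289 to 1.433 without and 1.439 to 1.602 with pregnancy, narrowly without overlap. Each control alone overlapped: actin was at 2.45 to 2.82 against 2.70 to 2.84, and GAPDH at -0.0075 to 0.13 against 0.043 to 0.39. The part of these markers and of RNA quality in the member values was not tested.

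Between day 12 and day 14 of the cycle, in non-pregnant ewes, no member was called. Of all probe sets 0.391% were called at an adjusted p under 0.05, and 0 members were (limma). The median member difference was -0.035, against -0.026 over all probe sets, and 39 of 110 were higher on day 14. At an unadjusted p under 0.05, 2 were higher (5.32% of all probe sets) and 1 lower (6.37%). Without overlap, 5 were higher (7.67%) and 10 lower (12.1%). Complex I was near 0 (24 of 46 higher, median 0.0096), and the medians of complexes II to V were -0.053, -0.073, -0.057 and -0.055. Within batch B, where a single day 14 array could be compared, 63 of 110 were higher, with a median of 0.034. The steroidogenic markers (1 of 9 higher on day 14) had means of 10.57 to 10.62 on day 12 and 9.99 to 10.4 on day 14, without overlap, and their part in the member values was not tested.

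The 3 members with an unadjusted p under 0.05 by limma were NDUFV3 (0.32 ± 0.12), the accessory subunit NDUFB4 (0.27 ± 0.12) and ATP5F1A (-0.19 ± 0.086). Their adjusted p-values from limma were 0.318 to 0.423. ATP5F1A was at 12.51, 12.46 and 12.48 on day 12 and at 12.28, 12.33 and 12.31 on day 14, below all day 12 arrays of both kinds. The day 14 pregnant arrays, at 12.37, 12.33 and 12.37, were also below all day 12 arrays. The remaining smallest p-values by complex belonged to SDHD (-0.19), SDHB (0.066), a dimmer UQCRC2 probe set (-0.26), UQCRC1 (-0.16), COX6C (-0.20), COX6B2 (0.30) and ATP5PF (0.15), a stalk subunit.

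The interaction term asks whether the pregnancy difference was the same on both days, and it gave no member call. It was called for 0.0874% of all probe sets and for 0 of 110 members (limma). The median member value, the day 14 pregnancy difference minus that of day 12, was -0.087 against 0.016 over all probe sets, and 80 of 110 were below 0. At an unadjusted p under 0.05, 0 were above (5.25% of all probe sets) and 3 below (4.16%). The medians were -0.13 in complex I, -0.047 in complex II, -0.087 in complex III, -0.023 in complex IV and -0.080 in complex V. The smallest p was that of NDUFV3, at -0.44 ± 0.16 (unadjusted p = 0.0155, adjusted p = 0.394, limma). The brightest of 3 NDUFA5 probe sets was at -0.36, and the 3 ranged from that value to 0.012. SDHB was at -0.28 ± 0.13, SDHD at 0.23, CYC1 at -0.28 ± 0.13, UQCR10, a small subunit of complex III, at -0.27 and NDUFA4L2 at 0.28. A dimmer COX6C probe set was at 0.48, a dim ATP5F1A probe set at -0.43 and a dimmer ATP5F1B one at -0.42. A difference between the days in the pregnancy effect was thus not shown for any single subunit.

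The subunits varied together over the 12 arrays. The median Pearson correlation between pairs of the 79 subunit genes was 0.50, and 0.35 after group and batch means were removed. Over 8160 named genes that were not dim it was 0.014. It was 0.66 in complex III, 0.55 in complex I, 0.48 in complex V, 0.40 in complex IV and 0.084 among the 4 genes of complex II. These are descriptions over arrays that share batch and RNA quality differences. The subunit closest to the mean of all was ATP5PD, a stalk subunit of ATP synthase (r = 0.95). The farthest were NDUFA4L2 (r = -0.39) and NDUFV3 (r = -0.18). Outside the members, the genes most like the subunit mean among the 8160 were SMARCB1, a chromatin remodelling subunit (r = 0.94), APOO and MICOS13, both of the complex that shapes the cristae (r = 0.93 for both), the mitochondrial elongation factor TUFM (r = 0.92) and the mitochondrial ribosomal protein MRPL37 (r = 0.92). On day 12 TUFM differed by 0.35 ± 0.13 (unadjusted p = 0.0241, adjusted p = 0.592, limma) and MICOS13 by 0.32 ± 0.13, neither of them called.

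Other mitochondrial gene lists showed which neighbours of the respiratory chain had similar day 12 values, with 0 genes called in any of them. Higher with pregnancy on day 12 were 57 of 68 measured mitochondrial ribosomal proteins (median 0.14, 13 at an unadjusted p under 0.05, against 3.46% of all probe sets) and 22 of 23 import and protease genes (median 0.16). So were 16 of 23 respiratory chain assembly factors (median 0.17). The medians were smaller for the carriers of electrons and adenine nucleotides (13 of 18 higher, median 0.061), the tricarboxylic acid cycle (15 of 22, median 0.056) and the regulators of mitochondrial biogenesis (7 of 14, median 0.027). Of the genes of mitochondrial steroid synthesis, 5 of 6 were higher (median 0.097).

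The mean of the ribosomal list was 7.32 to 7.33 in day 12 non-pregnant and 7.34 to 7.48 in day 12 pregnant arrays, the lowest of the latter being the batch A array. In day 14 non-pregnant arrays it was 7.24 to 7.47, wider than both. On day 14, in the fit over all arrays, the ribosomal list (22 of 68 higher with pregnancy, median -0.085) and the import list (8 of 23, median -0.073) were mostly on the other side of 0 than the subunits. Within batches, the ribosomal mean went the way of the subunits. It was higher with pregnancy in batch A (7.38 against 7.35 and 7.24) and lower in batch B (7.27 and 7.26 against 7.47). For the import list, the pregnant batch A array, at 8.04, lay between the non-pregnant ones, at 7.90 and 8.06. Both pregnant batch B arrays lay below the non-pregnant one, at 8.14. The day 14 calls in the mitochondrial lists were STAR, which brings cholesterol into the mitochondrion, and TFB2M, a mitochondrial transcription factor. STAR was higher with pregnancy by 0.74 ± 0.13 (adjusted p = 0.0245, limma). Its mean was 12.35 in day 14 non-pregnant and 13.12 in day 14 pregnant arrays, against 13.05 and 13.02 in day 12 non-pregnant and pregnant ones. TFB2M was at -0.68 ± 0.13 (adjusted p = 0.0331, limma).

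**Figure D5:**
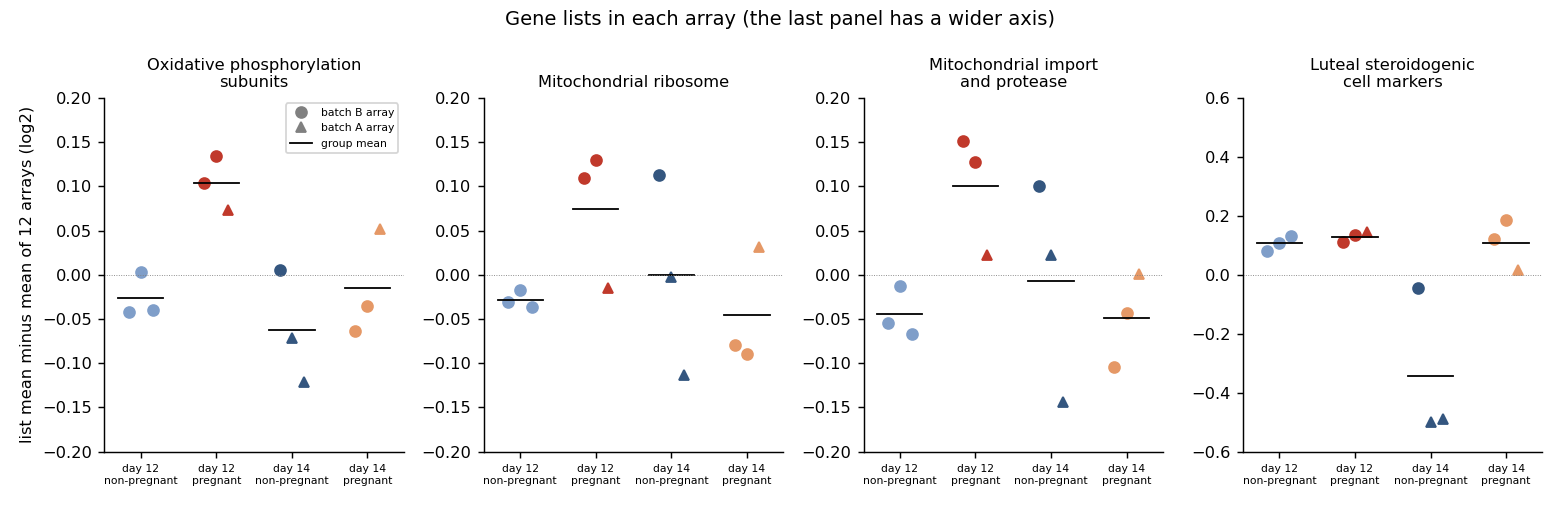
Mean of 4 gene lists in each array (log2, minus the mean of the 12 arrays; the last panel has a wider axis); circles are batch B, triangles batch A, lines group means. The group means of the subunits, the ribosomal list and the import list were highest in the day 12 pregnant group. In the ribosomal and import lists its arrays overlapped those of other groups. The steroidogenic markers were lowest in the day 14 non-pregnant group, whose batch A arrays lay farthest down.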

How the data were processed

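The deposited table gives log2 expression values for 24128 probe sets in 12 arrays, which the authors produced with RMA, run in Affymetrix Expression Console (both named in the submitters' processing notes). Their version is not given in the sources used here. This method normalizes the arrays to one distribution, so a shift shared by all genes cannot be seen, and it gives no detection calls. From these values, 112 control probe sets were left out. Probe sets were named from the cattle array's GEO annotation, which can be old: 13292 probe sets had 1 symbol, 86 several and 10638 none. Of 85 member symbols, 64 occurred in the sheep gene table of assembly ARS-UI_Ramb_v3.0.

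A model with a mean per group and a batch term was fitted to all 24016 probe sets with limma 3.58.1 in R 4.3.3 (7 residual and 4.39 prior degrees of freedom), tested two-sided and adjusted by Benjamini-Hochberg over all probe sets in each of 5 comparisons, with a threshold of 0.05. The script was tested on simulated data. Each array is a separate ewe, and no duplicates were found. Replicates were numbered in accession order and pair nothing. Precision is limited by the number of arrays.

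The members, gene lists and tests were chosen with earlier results of these data known. Named were the 2 members of each complex with the smallest p in each comparison, alternative isoforms, the SDH subunits, up to 4 called genes of each list and the 5 genes most like the subunit mean. Other subunits served as examples and were picked after their values were seen. The alternatives covered the batch term, batch as a random block, an intensity trend, dim probe sets, cyclic loess, array weights, the arrays of the 2 groups alone, each array left out, single batches, 1 probe set per gene and subunits alone. The fit on batch B alone was added after seeing the data. Sequences and coordinates were not used here.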

Additional observations from a re-analysis of the deposited data

How the results depend on the processing

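On day 12 the median over all members and those of the complexes kept their direction in every setting tried, while COX6A2, a COX8B and an NDUFA4L2 probe set, all near 0, changed sign in 9, 2 and 1 settings. The median member difference of 0.14 was 0.12 to 0.17 with single arrays left out and 0.13 to 0.17 otherwise, and 0 members were called in any. Comparisons with day 14 arrays were less stable, and the cause was not tested. The day 14 pregnancy median of 0.044 was -0.037 without day 14 non-pregnant replicates 2 and 3 (batch A), -0.075 with batch B arrays only or within batch B, 0.18 within batch A, and -0.050 (without day 14 pregnant replicate 3) to 0.12 (without day 14 non-pregnant replicate 1) with single arrays left out. Members called there were 0 to 1 with single arrays left out. The non-pregnant day median of -0.035 was 0.034 without the same 2 arrays, with batch B only, with the 6 arrays of the 2 groups and within batch B. These settings are 1 calculation, since each compares only day 14 non-pregnant replicate 1 with the day 12 non-pregnant arrays. With single arrays left out this median was -0.11 to 0.011. The pregnant day median of -0.13 was -0.0051 within batch A and -0.19 to -0.10 with single arrays left out. The interaction median of -0.087 was -0.16 without those 2 arrays, -0.23 with batch B only and -0.21 to -0.034 with single arrays left out. The calls over all probe sets also moved: 348 on day 14 became 24 to 531, 94 between the days of the cycle 1 to 462, 21 for the interaction 1 to 76, and 0 for pregnancy on day 12 0 to 5. The interaction's 3 members below 0 at an unadjusted p under 0.05 became 2 to 19. No paired analysis was possible because replicate numbers follow accession order.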
